A study of Oryza sativa with 3 samples.

Results

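Cytokinin release, breakdown and response genes were examined in rice leaf RNA on 3 Affymetrix rice arrays. The members were the genes whose symbol, or a synonym in the gene table, is LOG, or LOGL, CKX, IPT, RR, HK or HP followed by a number, with or without the prefix Os. That rule found 42 genes. Of these, 31 had a probe set of their own and 27 had a mean signal above a floor set at the overall median (log2 signal 5.50), out of 14397 genes measured above that floor. No gene in the table carried an IPT symbol, so cytokinin synthesis by that family was not analysed here.

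The study set 2 lines of the indica cultivar Guichao2 that carry an OsEBS transgene, B10201 and B10301, beside wild-type Guichao2 as the control. All 3 samples were untreated plants aged 6 weeks, grown at 28 °C under a cycle of 14 h light and 10 h dark, and each sample was leaf tissue of 10 plants hybridised to 1 array. The promoter that drives the transgene is not given in the sources used here, each line was sampled once, and the name EBS is absent from the gene names used here, so expression of the transgene itself was not analysed here. OsEBS is known as a rice gene that affects plant biomass and spikelet number.

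Cytokinins are adenine-derived hormones that promote cell division and delay the ageing of leaves. LOG enzymes turn inactive cytokinin nucleotides into the active free bases in a single step, and CKX enzymes, cytokinin oxidases/dehydrogenases, cleave the side chain and so destroy the hormone. Active cytokinin binds membrane histidine kinases (HK), phosphate passes through small phosphotransfer proteins (HP) to response regulators (RR) in the nucleus, type B regulators switch on target genes, and type A regulators are early targets that dampen the signal.

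Between 48.7% and 50.8% of the probe sets on each array were at or above the floor. The floor is the median of all 3 arrays together, so these shares lie around 50% by construction. The trimmed mean signals were nearly equal, at 498, 497 and 497. Such likeness is therefore no independent evidence that the arrays were comparable. In 2 stretches of the value table, of 6717 and 988 probe sets, the B10301 signals stood 1 row above their own probe sets. Across the probe sets of each stretch, B10301 correlated with the average of both other columns at 0.397 and 0.051 as deposited and 0.939 and 0.823 after each value was taken from 1 row above. Moved values were used throughout, and they touch 7 probe sets of the members, those of LOG (its weaker probe set), CKX1, HK5, RR1, RR5 and RR33. Among these, the probe sets of RR1 and HK5 were above the floor. Among the genes matched by the leaf marker list, glycolate oxidase GLO1 was high. Its log2 signals were 15.07 in the control, against 15.53 in B10201 and 15.82 in B10301. RBCS1, a small Rubisco subunit gene, was below or near the floor, at 4.08, 5.43 and 5.90. No other numbered RBCS gene was matched, so the low signal of RBCS1 says nothing about the other Rubisco genes of these leaves. The summed linear signal of the 3 leaf markers with a probe set was 36783 on the control array, 50370 on that of B10201 and 61114 on that of B10301. GLO1 made up most of each of these sums. For the 6 seed storage genes the summed signal lay between 1266 and 1537, mostly from GLUA-2. For the 10 MADS-box loci matched by the floral list it lay between 2332 and 3153, mostly from MADS16 and LOC4343851. That locus carries the name MADS2, as LOC4325001 also does, and 4 of the 10 loci were measured above the floor. No marker with a probe set read 0 on any array. The part of tissue makeup in the values below was not tested, and in such bulk leaf samples fewer cells of a type and less RNA per cell cannot be told apart.

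All 5 measured type A regulators and 3 of the 4 measured CKX genes had higher signals than the control in both OsEBS lines, although RR9 in B10301 was equal to the control to 2 decimals. Receptors and phosphotransfer proteins were close to the control. The release genes were split, with LOGL7 higher and LOGL9 lower. LOGL9 was the 1 of 27 measured members that differed 2-fold or more from the control in each line (3.7%), against 4.61% of all measured genes in either direction and 2.61% in the lower direction. In the higher direction there were 0 members, against 2.0%, so these counts are near the background. At least 2-fold in 1 or both lines were 6 members (22.2%), against 12.7% of all measured genes. Of the 27 members, 15 were higher than the control in both lines at any size, against 37.8% of all measured genes, and 9 were lower in both, against 41.6%. Both ratios share the 1 control array, so a high or low control value moves both together.

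limma, fitted to all 3 arrays over 26475 probe sets, called 0 probe sets at a Benjamini-Hochberg adjusted p of 0.05 (0.0% of those tested), while 4520 (17.1%) had an unadjusted p under 0.05. Among the members 0 passed, the adjusted p ran from 0.20 to 0.995, and 6 had an unadjusted p under 0.05, 4 higher and 2 lower. With 1 control array, an exact permutation test of a single gene cannot go below p = 0.33. The words higher and lower below therefore describe measured values. Where 3 signals are given without names, they are those of the control, B10201 and B10301 in that order, on the log2 scale. The 2 lines count as the replicates of the transgenic group, so an SD given with n = 2 lines holds only the spread between these samples.

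**Figure D1:**
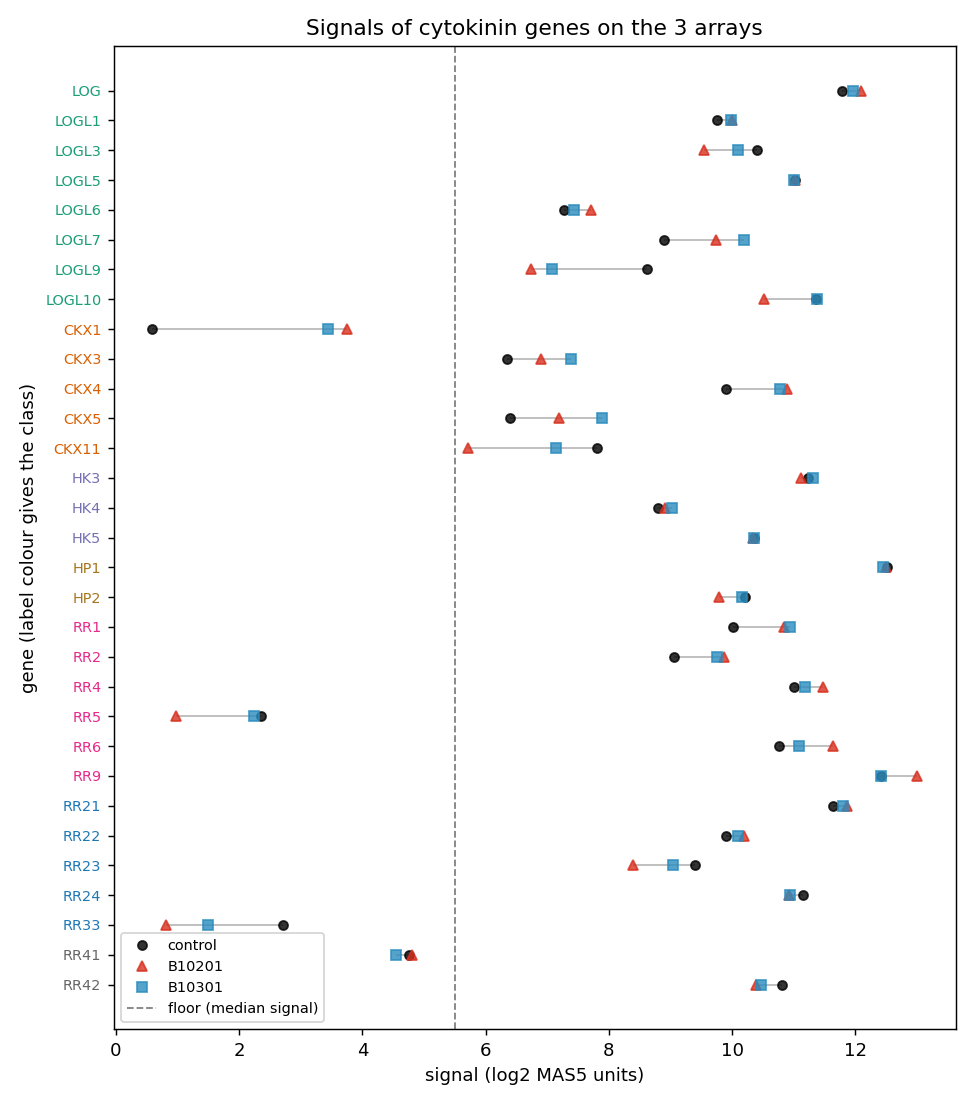
Log2 signal of the 31 cytokinin genes with a probe set (rows, label colour giving the class) on the control, B10201 and B10301 arrays, with the floor of 5.50 as a dashed line. CKX1, RR5, RR33 and RR41 lie below the floor on all 3 arrays, and signals of different genes come from different probe sets and are not comparable as transcript levels.

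Among the release genes, LOGL9, a LOG-like phosphoribohydrolase (LOC4347769), had a log2 signal of 8.61 in the control, against 6.74 in B10201 and 7.08 in B10301. Both lines lay well below the control, by log2 ratios of -1.87 and -1.53, which correspond to 3.66-fold and 2.89-fold lower signals. Its mean log2 ratio over both lines of -1.70 ± 0.24 (SD, n = 2 lines) stood at percentile 0.972 among all measured genes, and limma gave an adjusted p of 0.215.

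LOGL7, another member of the same enzyme family (LOC4339472), went the other way. Its signal was 8.89 in the control, against 9.73 in B10201 and 10.20 in B10301 on the log2 scale. Both lines were above the control, by 1.80-fold in B10201 and 2.48-fold in B10301, and the mean log2 ratio was 1.08 ± 0.33 (SD, n = 2 lines; limma adjusted p = 0.244). A second LOGL7 probe set was weak, at 4.79, 5.58 and 5.45, with the lines again on the higher side but its mean below the floor.

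The founding member LOG, which in rice keeps the shoot meristem active, differed little from the control. Its log2 signals were 11.79 in the control, against 12.09 in B10201 and 11.97 in B10301, which puts the lines slightly above the control with a mean log2 ratio over both lines of 0.24 ± 0.09 (SD, n = 2 lines). LOGL1, measured by an x_at probe set that may cross-hybridise, read 9.76, 10.00 and 9.99, and LOGL6 read 7.27, 7.71 and 7.43, so both had small positive ratios. LOGL5 was level at 11.02, 11.01 and 11.00.

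LOGL3 and LOGL10 were lower mainly in B10201. LOGL10 had log2 signals of 11.37 in the control, against 10.52 in B10201 and 11.37 in B10301, so B10301 matched the control while B10201 was lower by a log2 ratio of -0.84. LOGL3 stood at 10.41, 9.54 and 10.10, below the control in both lines by ratios of -0.87 and -0.30. As a class, the 8 measured release genes had a class median of 0.12 for B10201 and 0.084 for B10301 in log2 ratio, with 4 higher and 3 lower in both lines. Over all measured genes the medians were -0.02 and -0.01. The small positive median of the release class was -0.018 without x_at and s_at probe sets, which removed LOGL1. LOGL4 and LOGL8 had no probe set listed.

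**Figure D2:**
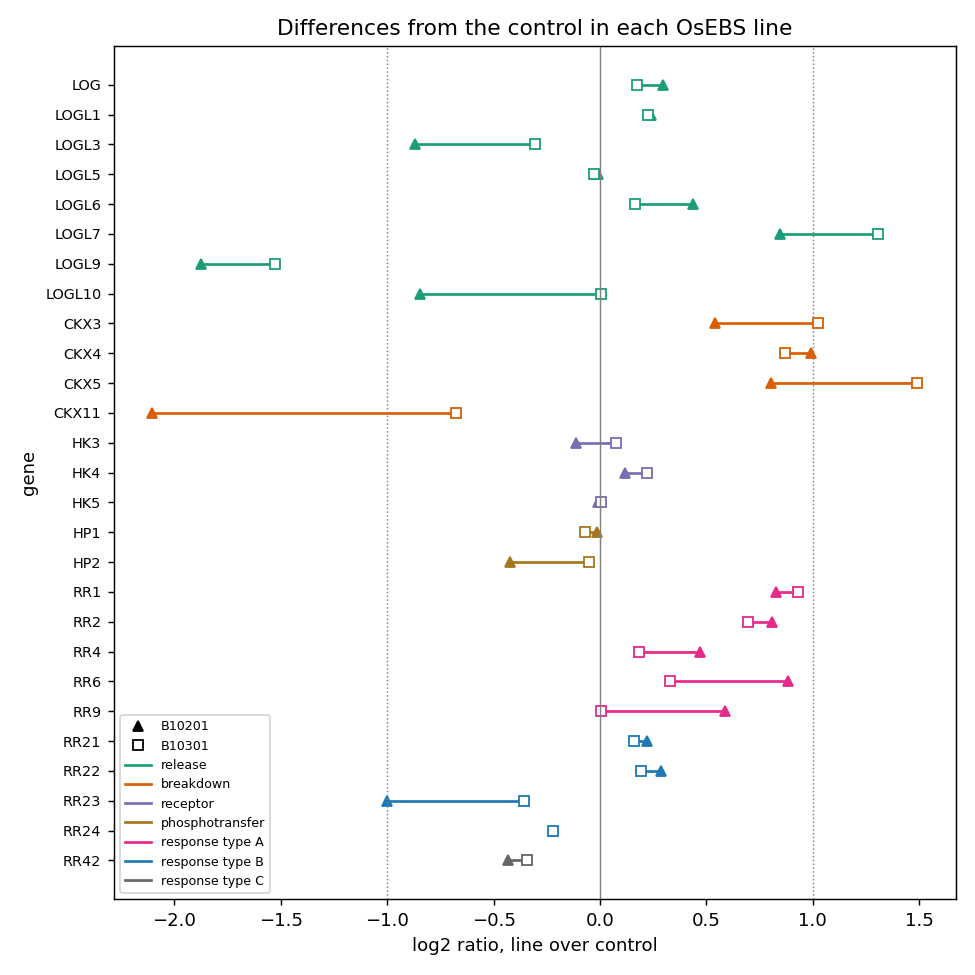
Log2 ratio of each OsEBS line over the control for the 27 measured cytokinin genes, triangles for B10201 and open squares for B10301, with colour giving the class and dotted lines at 2-fold. The 5 type A regulators lie on the higher side except RR9 in B10301, which is at 0.00, and LOGL9 alone is past 2-fold in both lines.

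The breakdown enzymes were mostly higher than the control, and 1 member was lower. CKX4, a cytokinin oxidase known in rice for its effect on root growth (LOC4326515), had log2 signals of 9.90 in the control, against 10.90 in B10201 and 10.77 in B10301. Both lines exceeded the control by similar amounts, 1.99-fold and 1.83-fold, and the mean log2 ratio was 0.93 ± 0.09 (SD, n = 2 lines; limma adjusted p = 0.20).

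CKX5 (LOC4327887), another oxidase of the family, read 6.39 in the control, against 7.19 in B10201 and 7.88 in B10301, a log2 ratio of 0.80 in the former and 1.49 in the latter. CKX3 (LOC4348932) read 6.35, 6.90 and 7.38, with ratios of 0.54 and 1.02. For both genes B10301 was the highest array and the control the lowest, and the control signals lay within 1 log2 unit of the floor. Their mean log2 ratios of 1.15 ± 0.49 and 0.78 ± 0.34 (SD, n = 2 lines) stood at percentiles 97.4 and 93.7 of all measured genes, beside 95.5 for CKX4.

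CKX11 (LOC4345764), which in rice affects flag leaf ageing and grain number, was lower. Its log2 signals were 7.81 in the control, against 5.71 in B10201 and 7.14 in B10301. B10201 lay far below the other arrays and close to the floor, at a log2 ratio of -2.10 (4.30-fold lower), while B10301 was at -0.67. The mean of -1.39 ± 1.01 (SD, n = 2 lines) carried a spread nearly as large as itself, and limma gave an adjusted p of 0.432. The second CKX11 probe set, whose mean was below the floor, also read lower in the lines, at 6.17 in the control, against 4.96 in B10201 and 4.40 in B10301.

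The 4 measured CKX genes had class medians of 0.67 for B10201 and 0.95 for B10301 in log2 ratio, with 3 higher and 1 lower in both lines. CKX1 was below the floor on every array, at 0.59, 3.75 and 3.45, so no ratio is given. CKX2, the grain number gene Gn1a, and CKX9 had no probe set listed.

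**Figure D3:**
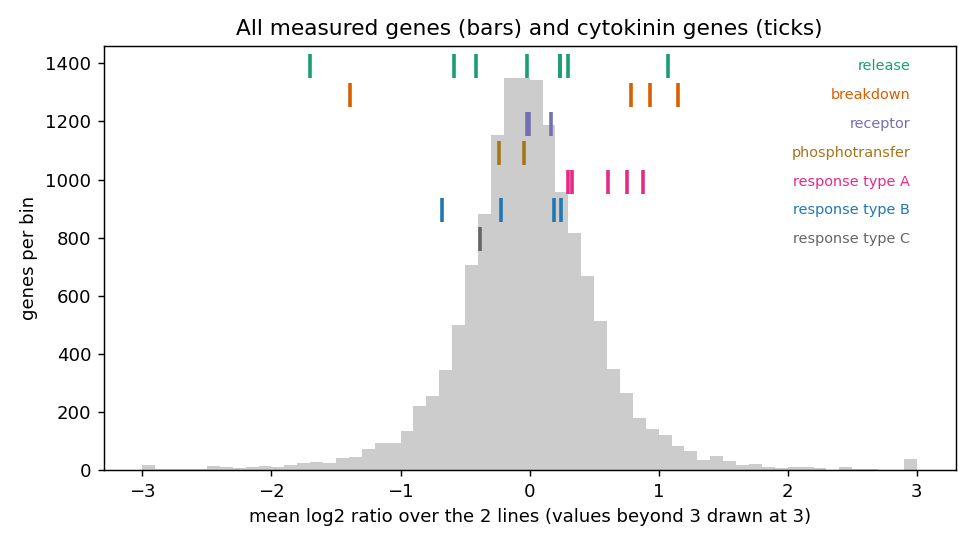
Histogram of the mean log2 ratio over both OsEBS lines for all 14397 measured genes (gray bars, values beyond 3 drawn at 3), with a tick for each of the 27 cytokinin genes in a row for its class. The 5 type A ticks and 3 of the 4 breakdown ticks lie right of the peak, with LOGL9 and CKX11 far left; the ticks of LOG and LOGL1 overlap.

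The receptors and phosphotransfer proteins differed little from the control. HK3, HK4 and HK5 belong to the histidine kinases that carry the CHASE domain, which binds cytokinin. HK3 (LOC9271913) read 11.24 in the control, against 11.13 in B10201 and 11.31 in B10301 on the log2 scale, so the control lay between the lines. HK4 read 8.80, 8.92 and 9.02. The 3 measured receptors had median log2 ratios of -0.01 for B10201 and 0.07 for B10301, and the 2 phosphotransfer genes of -0.22 and -0.06.

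HK5 lies in the longer displaced stretch. With the moved B10301 values its s_at probe set read 10.35, 10.34 and 10.36, and its other probe set 9.48, 9.28 and 9.16. As deposited, the s_at value of B10301 was 14.93. From the s_at probe set, which may cross-hybridise, the mean log2 ratio of HK5 was 0.00 ± 0.01 (SD, n = 2 lines). The 95% interval from limma ran from -0.38 to 0.38, so a difference within that range could not be detected here. Without x_at and s_at probe sets the mean log2 ratio of HK5 was -0.26.

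HP1 (LOC4347886), a phosphotransfer protein, had log2 signals of 12.51 in the control, against 12.50 in B10201 and 12.44 in B10301. HP2 (LOC4346300), measured by an s_at probe set, read 10.22, 9.80 and 10.17, with B10201 the lowest. The table gives the synonym OsHP1 to both genes, so their names follow the plain symbols here. A second probe set of HP2 read 7.99, 7.90 and 8.01 and showed a smaller difference. HK1, known in rice for ethylene responses of the root, had no probe set listed.

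All 5 measured type A regulators had positive log2 ratios in both lines. RR1 (LOC4335937), a type A regulator, read 10.01 in the control, against 10.84 in B10201 and 10.95 in B10301 on the log2 scale. Both lines were above the control and close to each other, at 1.77-fold and 1.91-fold, and the mean log2 ratio was 0.88 ± 0.07 (SD, n = 2 lines; limma adjusted p = 0.20). This gene lies in the longer displaced stretch, and with the deposited value of 9.29 for B10301 it would be lower than the control in that line, with a mean log2 ratio of 0.05.

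RR2 (LOC4329677), outside the stretches, gave nearly the same pattern. Its log2 signals of 9.06 in the control, against 9.87 in B10201 and 9.76 in B10301 put both lines above the control, with a mean log2 ratio over both lines of 0.75 ± 0.08 (SD, n = 2 lines; limma adjusted p = 0.230). RR1 and RR2 stood at percentiles 95.1 and 93.2 of all measured genes.

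RR6, RR4 and RR9 were higher mainly in B10201. RR6 (LOC4337372), which represses cytokinin responses when overproduced in rice, read 10.76 in the control, against 11.64 in B10201 and 11.09 in B10301, a log2 ratio of 0.89 in the former and 0.33 in the latter. RR9 (LOC4349747) read 12.42, 13.01 and 12.42, so B10301 equalled the control. RR4 (LOC4325747), measured by an s_at probe set, read 11.00, 11.47 and 11.18, and its ratios averaged 0.33 ± 0.20 (SD, n = 2 lines).

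The 5 type A genes had a class median of 0.81 for B10201 and 0.33 for B10301 in log2 ratio. Ratios ran from 0.47 to 0.89 for B10201, while for B10301 they ran from 0.00 to 0.93. The count of 5 higher in both lines was 4 with B10301 as deposited, where RR1 dropped out, and 4 with quantile normalization, where RR9 was just below the control in B10301. It was 4 of 4 with the stretches left out. Under the deposited order the class median of the mean ratio was 0.33 instead of 0.61. RR5 was below the floor on all arrays, at 2.36, 0.97 and 2.24, and RR7, RR10, RR11 and RR13 had no probe set listed.

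**Figure D4:**
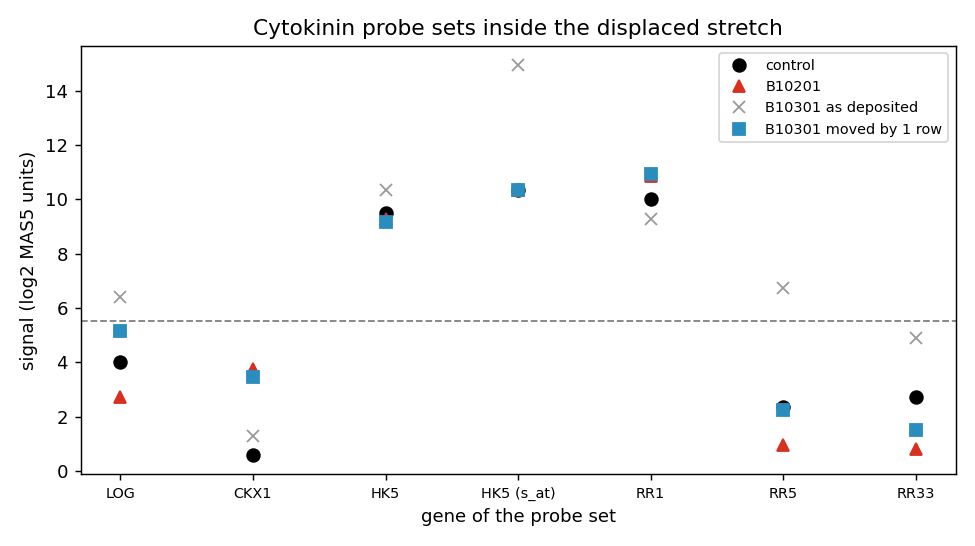
Log2 signal of the 7 cytokinin probe sets inside the longer displaced stretch, in the control, in B10201, in B10301 as deposited (crosses) and in B10301 moved by 1 row (squares), with the floor dashed. After the move, RR1 and both HK5 probe sets lie next to B10201, and RR5 and the weaker probe set of LOG, above the floor as deposited, lie below it like the other arrays.

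Type B regulators, the transcription factors of the pathway, did not share one direction. RR21 (LOC4332111) read 11.64 in the control, against 11.86 in B10201 and 11.80 in B10301, and RR22 (LOC4340320), known in rice for its effect on salt tolerance, read 9.90, 10.19 and 10.10. Both were slightly above the control in both lines. RR24 (LOC4328516) was slightly below, at 11.15, 10.93 and 10.93.

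RR23 (LOC4331008) differed most within type B, with log2 signals of 9.40 in the control, against 8.40 in B10201 and 9.04 in B10301. Both lines lay below the control, by log2 ratios of -1.002 for B10201 and -0.36 for B10301, and the mean was -0.68 ± 0.46 (SD, n = 2 lines; limma adjusted p = 0.429). The 4 measured type B genes had median log2 ratios of 0.00 and -0.03. RR33 was below the floor, between 0.81 and 2.71, and RR25 and RR27 had no probe set listed. RR27 and RR33 are numbered within type B but carry synonyms of an A series, so their type is not settled here.

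Of the regulators numbered from 41, treated as type C, RR42 (LOC4335184) read 10.82 in the control, against 10.38 in B10201 and 10.47 in B10301. Its mean log2 ratio over both lines of -0.39 ± 0.07 (SD, n = 2 lines) had an unadjusted limma p of 0.0497 and an adjusted p of 0.292. RR41 was below the floor, at 4.75, 4.80 and 4.55.

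Between the lines, CKX11 was the 1 of 27 members that differed at least 2-fold (3.7%), against 4.15% of all measured genes, with B10301 higher by 1.43 on the log2 scale. In that direction 1.35% of all measured genes passed the same fold, and 2.8% did in the other, where 0 members passed. The B10201 signal of CKX11, 5.71, was close to the floor of 5.50. The weaker CKX11 probe set, whose mean was below the floor, put the lines in the opposite order, at 4.96 in B10201 and 4.40 in B10301. The next differences were LOGL10, higher in B10301 by 0.85, CKX5 by 0.69 and RR23 by 0.64. RR9 and RR6 were lower in B10301 than in B10201, by log2 differences of -0.58 and -0.56. A difference under 0.2 on the log2 scale was found for 14 members, among them RR1, RR2, CKX4, LOG, LOGL1, HP1 and all 3 measured receptors. With 1 array per line these differences carry no test. In B10201, 3 members (11.1%) were at least 2-fold lower than the control, LOGL9, CKX11 and RR23, against 4.49% of all measured genes, and 0 were at least 2-fold higher, against 4.62%. In B10301, LOGL7, CKX3 and CKX5 were at least 2-fold higher (11.1%, against 3.84%), and LOGL9 was the 1 at least 2-fold lower (3.7%, against 4.44%).

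Other genes of the pathway were sought by symbol. Of 5 KNOX genes, transcription factors that in rice raise cytokinin synthesis in the shoot meristem, 4 had a probe set and 0 were measured above the floor. OSH1 read 2.42 in the control, against 0.80 in B10201 and 2.84 in B10301. PHP5, a pseudo-phosphotransfer protein, read 7.34, 7.36 and 7.89, higher in B10301 alone. The 4 measured pseudo-response regulators of the circadian clock, which share the receiver domain of the RR family, had 0 members at least 2-fold from the control. Among them PRR37, which also sets heading date, read 12.72, 13.17 and 13.11, with log2 ratios of 0.44 and 0.39, and PRR73 read 13.56, 13.61 and 13.69. The gene table held no symbol of the lists for cytokinin hydroxylation, transport, salvage or conjugation.

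The members lie on all 12 chromosomes of the gene table, between 1 and 8 on each. Within 30 places of the order of protein-coding genes there were 3 pairs of members. RR33 and CKX11 on chromosome 8 were 9 places apart, LOGL6 and RR5 on chromosome 4 were 21 apart, and LOGL10 and CKX3 on chromosome 10 were 23 apart. In the last pair both genes were measured, and LOGL10 was lower in B10201 while CKX3 was higher in both lines. RR33 and RR5 were below the floor, so the other pairs offer no comparison.

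**Figure D5:**
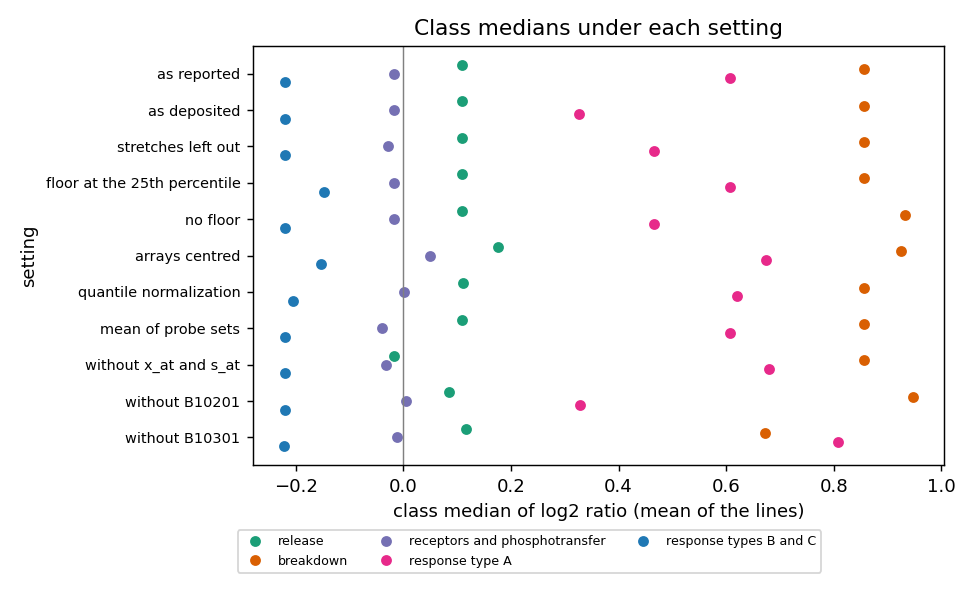
Median log2 ratio of each cytokinin class (mean of both lines) as reported and under each alternative, with each line left out in the lowest rows. The breakdown median stays between 0.67 and 0.95 and the type A median between 0.33 and 0.81, both on the higher side.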

How the data were processed

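Biotin-labelled cRNA was made from total RNA with a 3' IVT kit, per the labels' protocols. The values deposited are log2 signals from MAS5, as named in the submitters' processing notes; version, scaling target and detection calls are not given in the sources used here. The trimmed mean linear signals (2% off each end) were 498, 497 and 497. The number of arrays limits the precision. B10301 values of rows 24427 to 31143 and 53064 to 54051 were taken from 1 row above. Probe sets with a mean signal above the overall median (5.50) were kept, 26475 of 57194, and single signals under it were then set to it as a floor. A gene was represented by its probe set with the highest mean. Of all probe sets, 22436 had 1 gene, 95 several and 34663 none in the platform annotation; all 17905 genes were found in the gene table of assembly ASM3414082v1, used for names and gene order. limma 3.58.1 (R 4.3.3) was run with an intensity trend and 1 residual degree of freedom, taking the control to vary like the lines. It was tested on simulated data in which the control was made to vary like the lines, so that assumption was not checked. Other steps used Python 3.11.15, numpy 2.4.6, pandas 2.3.3 and matplotlib 3.10.9. Members, lists and classes (type A up to RR13, type B from RR21 to RR33) were chosen with earlier results of these data known. Every member is named. Full values are given for members 2-fold from the control in either line or between lines and for the 2 with the highest mean signal per class. Other pathway genes are counted by list; the tissue lists held no root gene. Alternatives covered the displaced values, floor, normalization, probe set choice and each line left out.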

Additional observations from a re-analysis of the deposited data

How the results depend on the processing

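The count of members with a 2-fold or larger difference from the control in each line (1) was 3 without a floor, when members near background enter, and 1 in each of the other processing settings; a single line alone gave 3 (B10201) or 4 (B10301). Members at least 2-fold different between the lines (1) numbered 3 with B10301 as deposited and 2 without a floor. The counts of type A (4 to 5) and CKX genes (3 to 4) higher in both lines stayed within 1.5 times, but the genes measured differed between settings. Their alternatives were chosen after seeing the data. Type A counts were 4 of 5 as deposited and with quantile normalization. They were 4 of 4 with the stretches left out and without x_at and s_at, and 5 of 6 without a floor. CKX counts were 3 of 4, or 4 of 5 without a floor, where CKX1 entered. In each line alone the counts were 5 of 5 and 3 of 4. Type A medians ran from 0.33 to 0.81 with a line left out, CKX medians from 0.67 to 0.95, release from 0.084 to 0.12, receptors with phosphotransfer from -0.012 to 0.0058, and types B and C from -0.22 to -0.22. Against the 0.11 reported, the release median was 0.18 with centred arrays and -0.018 without x_at and s_at probe sets. Receptors with phosphotransfer (-0.02) were at 0.0496 with centred arrays, 0.0003 with quantile normalization, -0.0405 with probe sets averaged and -0.033 without x_at and s_at. Types B and C (-0.22) were at -0.15 with a floor at the 25th percentile, -0.15 with centred arrays and -0.21 with quantile normalization. limma called 0 probe sets as reported, 128 without a floor, 26 with centred arrays, 4 with 1 probe set per gene and 52 with robust moderation, and 0 with B10301 as deposited, the stretches left out, a floor at the 25th percentile, quantile normalization, no x_at and s_at or no trend; 0 members were among the calls in any of these. The causes were not tested. Single-member signs turned in 4 cases with centred arrays, 2 with quantile normalization, 1 as deposited (HK5, at 2.28) and 3 without B10201, but LOGL9 was lower throughout (-1.53 to -1.87). No paired analysis was possible because the control has 1 array and the labels number no replicates. CKX1, RR5, RR33 and RR41 lay below the floor, so their differences could not be measured.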
